A study of Homo sapiens with 6 samples.

Results

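The genes described here are those of the mTOR complexes and of the TSC-RHEB switch that controls them. They are 10 genes chosen by name: MTOR, MLST8, RPTOR, AKT1S1, RICTOR, DEPTOR, TSC1, TSC2, RHEB and DDIT4. The deposited table of translational efficiency holds 9 of them among 8121 genes, with no row for TSC1. The deposited table of ribosome occupancy holds 8 of them among 9570 transcripts, with no row for MLST8 or DDIT4. 7 genes are in both tables.

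The data come from ribosome profiling, in which the pieces of mRNA that ribosomes shield from nuclease (RPFs) are sequenced, which shows how many ribosomes an mRNA carried and where. There were 3 RPF libraries and 3 total RNA libraries, numbered 1 to 3, of HEK293 cells, a line from human embryonic kidney. According to the labels all of them carried a control siRNA, which the methods of the profiling do not mention. The cells were treated with cycloheximide, a drug that halts elongating ribosomes, at 100 µg/ml for 3 min, then washed and lysed with it. What this treatment did to the positions of ribosomes was not tested. There was therefore a single condition, and the comparisons are between genes within it. Of 5 genes fixed as marks of HEK293, VIM, INA, NEFL and NEFM were in both tables and PAX2 in neither, and none of 5 genes of blood, liver or keratinised cells was listed. The methods describe the procedure as done in 3 repeats and do not say whether these were separate cultures, so the p-values measure the spread between these libraries, which may be technical.

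mTOR is a protein kinase that joins nutrient and growth factor signals to protein synthesis. With RPTOR it forms mTORC1, which phosphorylates the regulators of cap-dependent translation, and with RICTOR it forms mTORC2, which phosphorylates AKT. RHEB loaded with GTP switches mTORC1 on at the lysosome, and the complex of TSC1 and TSC2 switches RHEB off.

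Translational efficiency, the authors' ratio of RPFs to total RNA, differed widely among these genes. RHEB was the highest with 1.54 ± 0.0370 (SD, n = 3) and MLST8 the lowest with 0.0264 ± 0.00687, while the median gene had 0.385. Against the median of the table, RHEB, DDIT4 and DEPTOR were called higher and MTOR, RPTOR, RICTOR, TSC2, AKT1S1 and MLST8 lower, by limma (FDR 0.05 after Benjamini-Hochberg adjustment). All 9 were thus called, as were 89.3% of all genes tested, 44.7% higher and 44.6% lower, so the number of calls says little about these genes. The spread between genes, with an SD of 1.56 on the log2 scale, was far larger than the median SD between replicates, 0.10. Differences are given on the log2(value + 0.01) scale, which understates the change of the lowest genes.

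**Figure D1:**
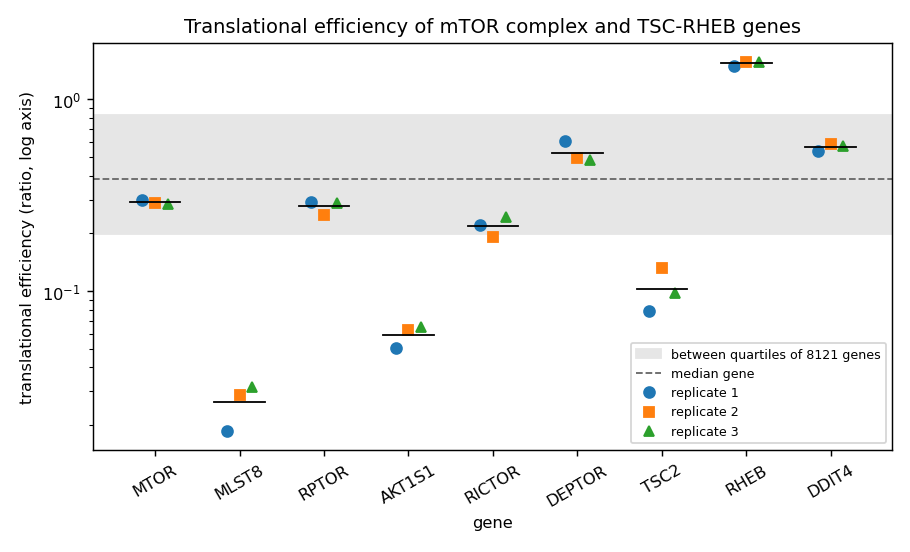
Translational efficiency (ratio of RPFs to total RNA, log axis) of the 9 genes with a value, by replicate; black bars are means, the dashed line is the median gene (0.385) and the grey band runs from the lower to the upper quartile of 8121 genes. RHEB lies above the band, and MLST8, AKT1S1 and TSC2 lie below it in all 3 replicates.

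The kinase itself, MTOR (chr1:11166592-11322613 in GRCh37, minus strand), had efficiencies of 0.299, 0.288 and 0.284 in replicates 1 to 3. These are among the closest sets of replicates here, with an SD of 0.00767. They place MTOR at percentile 38.7 of all genes, 0.39 ± 0.05 (SE) below the median on the log2 scale (limma, adjusted p = 0.000878).

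MLST8 (chr16:2254249-2259454, plus strand), a small subunit that binds the kinase domain in both complexes, had 0.0186, 0.0288 and 0.0317. All 3 values lie at or below percentile 0.228 of their replicate, and the mean was 14.6-fold below the median gene, a log2 difference of -3.45 ± 0.12 (SE) (limma, adjusted p = 6.31e-06). Against MTOR, MLST8 was lower by 3.43, 2.94 and 2.82 on the log2 scale in the 3 replicates. The mean difference was -3.06 ± 0.13 (SE; limma on differences within replicates, adjusted p = 9.37e-06, and 1.64e-05 without the pairing), where 88.7% of all genes differed from MTOR. Its size depends on the value added before the logarithm, with -1.63 when 0.1 was added and -3.45 when 0.001 was. GENCODE annotates 10 coding transcripts of MLST8 and none could be checked for occupancy, and the sources do not state which of them the ratio counts.

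RPTOR (chr17:78518619-78940171, plus strand) is the scaffold of mTORC1 that recruits its substrates, and RICTOR (chr5:38938022-39074504, minus strand) is the scaffold that defines mTORC2. RPTOR had efficiencies of 0.293, 0.250 and 0.286, and RICTOR had 0.221, 0.192 and 0.245. RPTOR was above RICTOR in each replicate, and the lowest RPTOR value lay just above the highest RICTOR value. The difference was 0.32 ± 0.13 (SE) on the log2 scale, a ratio of 1.26 (limma within replicates, adjusted p = 0.0148; 0.031 without the pairing), and 86.6% of all genes differed from RICTOR. By replicate the difference was 0.389, 0.366 and 0.220. Without replicate 1 it was 0.29 ± 0.18 (SE) and no longer passed the threshold (limma, adjusted p = 0.132), as the size changed little and the SE rose. The fit within replicates took the spread as known, so the p-value without the pairing is the one to read. Relative to the median gene RPTOR was lower by 0.46 ± 0.06 and RICTOR by 0.79 ± 0.08 on the log2 scale.

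AKT1S1 (chr19:50372290-50381716, minus strand) encodes PRAS40, an inhibitory subunit of mTORC1 that AKT phosphorylates. Its efficiencies were 0.0504, 0.0626 and 0.0649, at percentile 1.77 for the mean. Its mean was 6.49-fold below the median gene, a log2 difference of -2.51 ± 0.08 (SE) (limma, adjusted p = 4.91e-06), and its highest replicate lay below the lowest of TSC2. DEPTOR (chr8:120885957-121063157, plus strand), which binds and restrains both complexes, had 0.607, 0.494 and 0.480. Replicate 1 stood above the others, and the mean was 0.44 ± 0.08 above the median gene (limma, adjusted p = 0.00434). The inhibitory subunits AKT1S1 and DEPTOR therefore stood on opposite sides of the median gene.

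Of the TSC complex only TSC2 had an efficiency. TSC2 (chr16:2097968-2139492, plus strand) is the GTPase-activating subunit that acts on RHEB, and TSC1 (chr9:135766735-135822261, minus strand) stabilises it. TSC2 had 0.0785, 0.131 and 0.0983, with an SD of 0.34 on the log2 scale, which with the 0.29 of MLST8 is above those of the other 7 genes, at percentiles 4.38, 13.4 and 6.85 of each replicate. RHEB (chr7:151163098-151217206, minus strand), the small GTPase that TSC2 inactivates, had 1.498, 1.563 and 1.561, and percentile 88.2 for the mean. RHEB exceeded TSC2 by 4.09, 3.48 and 3.86 on the log2 scale, in 3 of 3 replicates. The mean difference was 3.81 ± 0.22 (SE), a 15-fold ratio between the means (limma without pairing, adjusted p = 2.03e-05), and 88.5% of all genes differed from TSC2. The fit within replicates gave 1.15e-63, which is not a usable probability: every difference in that fit holds the noise of TSC2 itself, so limma took the spread as known. An exact two-sided permutation test of the 3 values of RHEB against the 3 of TSC2 gives 0.1, the smallest p that this number of replicates allows. RHEB's values are uncertain, because 77.2% of the 30-base words of its CDS also occur in transcripts of other genes, mostly its pseudogene RHEBP1, while the other 7 genes with a matched transcript shared none.

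DDIT4 (chr10:74033678-74035794, plus strand) encodes REDD1, which is induced by stress and restrains mTORC1 through the TSC complex. It had 0.539, 0.582 and 0.569, and was 1.46-fold above the median gene (limma, adjusted p = 0.000270). In rising order of the means the genes were MLST8, AKT1S1, TSC2, RICTOR, RPTOR, MTOR, DEPTOR, DDIT4 and RHEB. The ranges of the 3 replicates overlapped for RPTOR with MTOR (means 0.276 and 0.290) and for DEPTOR with DDIT4 (0.527 and 0.563), and their differences were smaller than the larger SD. For the other 6 neighbours in that order the ranges did not overlap, and each exact two-sided permutation test gave 0.1.

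The genes around these complexes were counted in lists drawn up by their role. Across 6 lists of the pathway 65 of 86 genes had an efficiency, of which 23 were called higher than the median, 34 lower and 8 neither (limma, FDR 0.05). The share called, 87.7%, was close to the 89.3% of all genes. In occupancy 37 of 74 genes of these lists were above the median transcript. Of the Rag GTPases, Ragulator and FLCN, which bring mTORC1 to the lysosome, 4 of 13 were higher and 8 lower, with a median efficiency of 0.203. Only 10 of these 13 had an occupancy, and their median stood the other way, at 0.0563 per CDS codon against 0.0450 for all transcripts, with 7 of 10 above it. The medians of efficiency and occupancy thus cover unlike sets of genes. The lowest was LAMTOR1, an anchor of Ragulator, with 0.0355, 0.0525 and 0.0597, and the highest the GTPase RRAGC with 2.64, 2.75 and 2.47. Of GATOR, KICSTOR and the amino acid sensors 5 of 13 were higher and 4 lower, and their median of 0.386 was close to the 0.385 of all genes. Here WDR24 of GATOR2 was the lowest with 0.0968, 0.10 and 0.115, and DEPDC5 of GATOR1 the highest with 18.1, 18.8 and 14.1. In occupancy DEPDC5 was low, with 0.0223 per CDS codon against the 0.0450 of the median transcript.

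Of the remaining subunits and assembly factors 2 of 5 were higher and 3 lower, from MAPKAP1, a subunit of mTORC2, with 0.0874, 0.0974 and 0.0953, to the ATPase RUVBL1 with 0.725, 0.733 and 0.692. Upstream, the PI3K, AKT and insulin receptor genes had 2 of 10 higher and 7 lower, from PIK3R2, a regulatory subunit of PI3K, with 0.0643, 0.0478 and 0.0524 to the kinase PDPK1 with 0.597, 0.717 and 0.583. LKB1 and AMPK, which restrain mTORC1 when energy is low, had 4 of 8 higher and 3 lower. STK11, which encodes LKB1, was the lowest of these with 0.0406, 0.0518 and 0.0423, and PRKAA2, a catalytic subunit of AMPK, the highest with 0.785, 0.743 and 0.754. Among the substrates and effectors 6 of 16 were higher and 9 lower, from the transcription factor ATF4 with 0.0469, 0.0560 and 0.0490 to EIF4EBP2, a repressor of the cap-binding factor, with 3.17, 3.13 and 2.82.

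mRNAs that start with a terminal oligopyrimidine (TOP) tract are known targets of mTORC1. Of 15 such mRNAs other than those of ribosomal proteins, 14 were called higher and 1 lower, where 44.7% and 44.6% of all genes were, with a median efficiency of 1.58. In occupancy their median was 0.0648 per CDS codon and 9 of 12 were above the median transcript. The one below the median gene was RACK1 with 0.275, 0.282 and 0.268, and the highest was EEF1B2, an elongation factor subunit, with 148, 124 and 213, though its occupancy was only 0.0613. The median of the mTOR and TSC-RHEB genes themselves was 0.276.

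**Figure D2:**
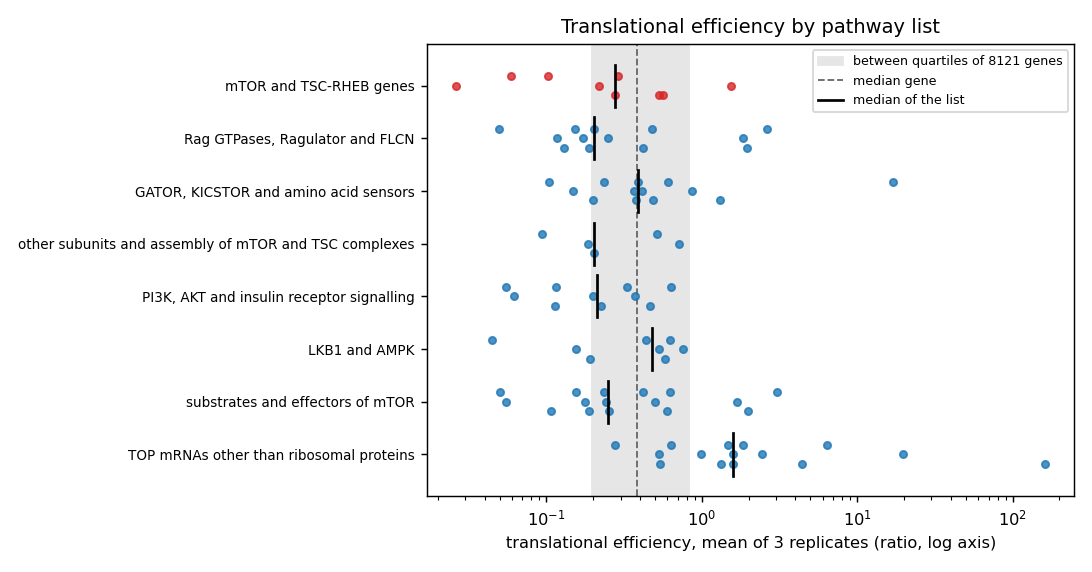
Mean translational efficiency over 3 replicates (ratio, log axis) of the mTOR and TSC-RHEB genes (red) and of 7 lists of related genes (blue); each point is a gene, black bars are list medians, the dashed line is the median gene and the grey band runs between the quartiles of 8121 genes. The TOP mRNAs have a median of 1.58, above the upper quartile of 0.825, and the medians of the other lists lie between 0.203 and 0.481.

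Ribosome occupancy was next read along the mRNAs. The authors' values are RPF counts per codon, in frame with the coding sequence (CDS), normalized for library size, divided by the abundance (TPM) of the transcript and combined over the replicates, so they have no replicate error. Within a transcript each value is a sum of whole reads from 3 libraries, and a read is worth a fixed amount in each library. For all 8 genes these amounts could be solved for every value, which gave 3 sets of reads that were not assigned to replicate numbers and serve here as a check of repeatability. The genes held between 535 reads (DEPTOR) and 9433 reads (MTOR). A read is worth less on an abundant mRNA, and by that measure RHEB was 5.44 times as abundant as the median transcript, AKT1S1 2.21 times, MTOR 2.20 times and TSC2 1.05 times. TSC1 (0.718), RPTOR (0.661), RICTOR (0.617) and DEPTOR (0.283) were below it.

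Per codon of the CDS, RHEB carried the most ribosomes of the 8 genes, and MTOR and AKT1S1 the fewest. The median transcript had a mean occupancy of 0.0450 per codon. RHEB had 0.0919, DEPTOR 0.0516 and RICTOR 0.0488, which are above it. RPTOR with 0.0364, TSC2 with 0.0283, TSC1 with 0.0279, AKT1S1 with 0.0201 and MTOR with 0.0186 were below. MTOR, whose 2550 codons make its CDS longer than those of 99.3% of transcripts, thus stood at percentile 16.4. In the 3 sets of reads MTOR had 0.0189, 0.0186 and 0.0184, and RICTOR had 0.0528, 0.0444 and 0.0492, so the sets of these genes did not overlap. AKT1S1 had 0.0206, 0.0215 and 0.01834, which overlap those of MTOR. TSC1, which has no efficiency, was close to its partner, with 0.0283, 0.0264 and 0.0290 against 0.0297, 0.0273 and 0.0278 for TSC2, and their sets overlapped.

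The 2 tables share the RPFs, but they did not place every gene alike. Over 6912 genes in both, efficiency and CDS occupancy had a Spearman coefficient of 0.688, given as a description since both rest on the same libraries. MTOR was above RICTOR in efficiency, 0.290 against 0.219, and below it in occupancy, 0.0186 against 0.0488. The log2 ratio of efficiency to occupancy, less that of the median gene, was 1.12 for RHEB and 1.02 for MTOR, and -1.39 for AKT1S1, -1.09 for TSC2 and -0.78 for RICTOR. The quartiles of all genes were -0.72 and 0.79, so these 5 genes lie outside them, RICTOR narrowly. RPTOR with -0.02 and DEPTOR with 0.40 were within the quartiles. Over all genes this ratio itself rises with efficiency (Spearman coefficient 0.599), which is the direction of the low values of AKT1S1 and TSC2 and the high value of RHEB, while MTOR, with an efficiency below the median, has a high ratio. The sources do not state the formula of the efficiency, and what sets the genes apart was not tested.

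**Figure D3:**
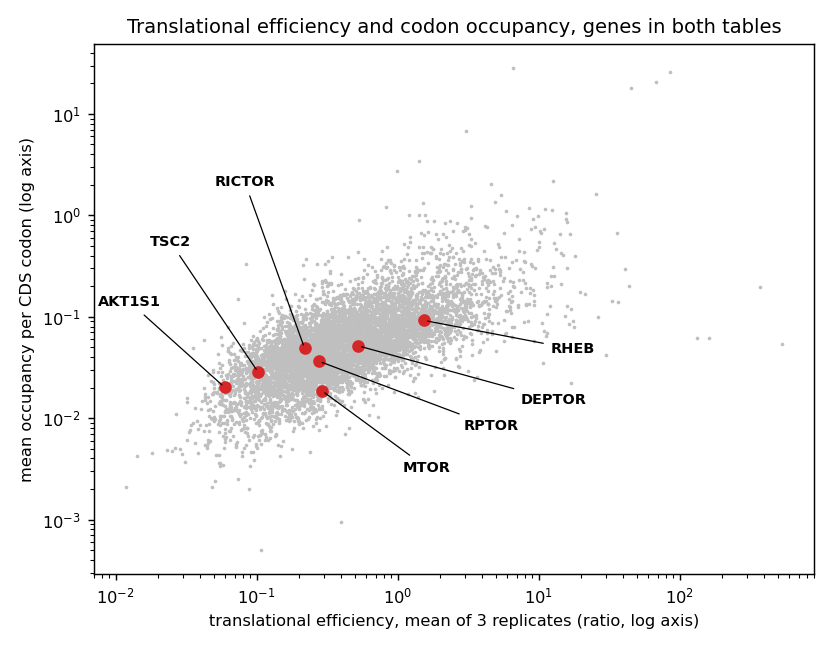
Mean occupancy per CDS codon (authors' value, replicates combined, log axis) against mean translational efficiency (ratio, log axis) for genes in both tables (grey) and the 7 mTOR and TSC-RHEB genes among them (red). MTOR, with an efficiency of 0.290, lies below the middle of the cloud, and the other 6 genes lie within it.

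Along the CDS the ribosomes were spread unevenly, and TSC2 had the largest ratio of the first to the last 75 codons. The first 75 codons of TSC2 held 635 reads and the last 75 held 48. The sets had 298 against 21, 200 against 19 and 137 against 8, and the ratio of mean occupancy was 13.4, at percentile 99.0 of 9309 transcripts. The last 75 codons were low in their own right, with 0.00653 per codon, at percentile 7.0, and the first 75 were high, with 0.0877, at percentile 80.7. Codons 1394 to 1741 together still held 17.5% of the occupancy.

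RPTOR had the next largest ratio of the first to the last 75 codons, 2.56, with 3.15, 2.66 and 2.12 in the sets. Its first 267 codons of 1336 held 35.0% of the occupancy, with 35.0%, 35.6% and 34.5% in the sets, and codons 535 to 802 held 10.4%. The codon by which 50% of the occupancy was reached lay 34.5% along the CDS in RPTOR (percentile 10.0) and 37.05% along in TSC2 (percentile 13.6), so by this measure RPTOR was the more weighted to the start. MTOR had a ratio of 1.51 and DEPTOR 1.23, and RICTOR was even between these windows at 1.01. RHEB (0.861), AKT1S1 (0.782) and TSC1 (0.639) had more on the last 75 codons, though the sets of AKT1S1 differed (0.646, 1.07 and 0.633). The median transcript had 0.980. Thus 5 of 8 genes had more ribosomes on the first than on the last 75 codons, a count that ran from 4 to 6 under other windows. Wider parts of the CDS ranked some genes otherwise. Codons 1 to 233 of TSC1 held 23.9% of its occupancy and codons 933 to 1165 held 16.7%. In RICTOR codons 1 to 347 held 25.4% and codons 1387 to 1733 held 13.1%. In AKT1S1 codons 1 to 51 held 12.7% and codons 207 to 257 held 27.5%. In RHEB the first 37 of 185 codons held 8.24% of the occupancy. Codons of RHEB whose surrounding 30 bases occur in no other gene had a mean occupancy of 0.173 over 40 codons, and the 136 codons whose surroundings are shared had 0.0726.

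**Figure D4:**
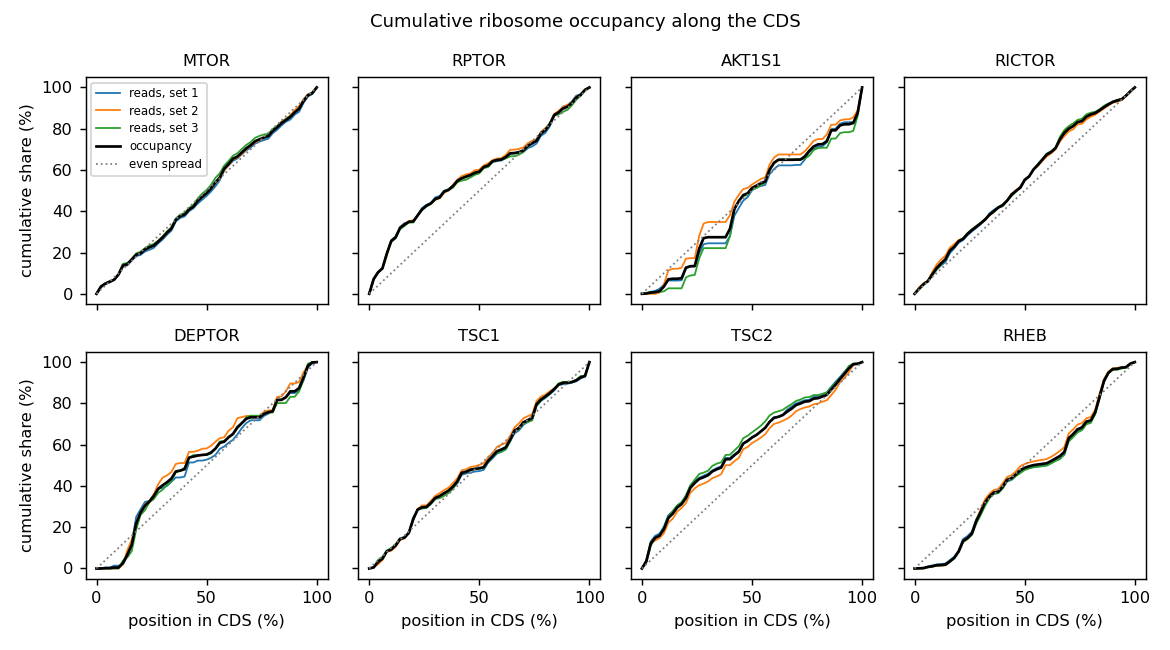
Cumulative share of ribosome occupancy (%) against position along the CDS (%) in 8 genes; black is the authors' combined occupancy, the coloured lines are the 3 sets of reads, and the dotted line is an even spread. MTOR follows the dotted line, RPTOR and TSC2 run above it, and RHEB starts with 8.24% in its first 37 codons.

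The start codon separated the genes too. The median transcript had 0.286 times the mean of its CDS there, and the average over transcripts with a CDS over 600 nt was 2.54. In MTOR it held 45 reads, 12.4 times the mean of its CDS (percentile 95.3), and in RPTOR 19 reads, 8.52 times (percentile 92.3). The other 6 genes had 3 reads or fewer there. On these few reads TSC1 with 1.45 times, RICTOR with 0.719 times and TSC2 with 0.365 times the mean were above the median transcript. RHEB with 0.0618 times was below it, and AKT1S1 and DEPTOR had 0 reads.

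The single codon with the most ribosomes is shown for 6 genes with the 12 bases before and the 15 after, with the codon in capitals, in the sense of the mRNA with T for U. Coordinates are those of GRCh37 and the letters come from that genome. The codon of DEPTOR, codon 74 of 410 with 22 reads, is not shown.
MTOR, codon 1467, chr1:11217262-11217291, minus strand: tatgacaagaaaATGgacaccaacaaggac
RPTOR, codon 125, chr17:78681653-78681682, plus strand: cagagccttgacCCAactgtggatgaagtc
RICTOR, codon 912, chr5:38953602-38953631, minus strand: aatgttcgtacaCCAgatttggataagtgg
TSC1, codon 1158, chr9:135771628-135771657, minus strand: atggactacaatGAGactcatcatgaacac
TSC2, codon 1640, chr16:2138087-2138116, plus strand: gtgtctgaccgcAACctgcccttcgtggcc
RHEB, codon 52, chr7:151181844-151181873, minus strand: acagtaaatggaCAAgaatatcatcttcaa

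The top codon of TSC1 lay near the end of the CDS, at 1158 of 1165, with 16, 13 and 12 reads in the sets, but in 0 of the sets taken alone was it the highest codon. In MTOR the top codon held 47, 29 and 22 reads, and in TSC2 28, 52 and 10. That of MTOR held 1.03% of the occupancy, where the median transcript had 4.95%, but on 2550 codons against a median of 448. Relative to the mean of its CDS it was 26.3 times, above the 21.0 of the median transcript. The codon of RPTOR had 23, 28 and 8 reads and that of RICTOR 31, 21 and 5. The shown codon was the highest in 1 of 3 sets for RPTOR and TSC2, and in 2 for MTOR, RICTOR and RHEB. Its worst rank in a set was 30 in RICTOR, 9 in RPTOR, 8 in TSC2, 4 in MTOR, and 2 in TSC1 and RHEB. RHEB had 161, 162 and 78 reads at codon 52, which was 8.81 times its mean, less than the 21.0 of the median transcript.

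Ribosomes were also found on the 5′UTR, and the genes fell apart in this. AKT1S1 had 103 of its 1139 in-frame reads there, or 9.04% (95% exact interval 7.44 to 10.9). RPTOR had 112 of 2982, or 3.76% (3.10 to 4.50), and TSC1 63 of 2146, or 2.94% (2.26 to 3.74). By share of occupancy these stood at percentiles 93.2, 84.1 and 80.7, and the median transcript had 0.364%. RHEB had 51 of 8425 reads, or 0.605% (0.451 to 0.795), MTOR 25 of 9433, or 0.265% (0.172 to 0.391), and TSC2 5 of 4693, or 0.107% (0.0346 to 0.248). DEPTOR had 0 of 535, which allows a share of up to 0.561% if 3 reads are taken as the limit and 0.687% by the exact interval. RICTOR had 0 of 4715, up to 0.0636% and 0.0782%, on a 5′UTR of only 7 codons. Thus 4 of 8 genes were above the median transcript. Intervals cover counting error only. In the sets AKT1S1 had 10.8%, 7.16% and 8.87%, RPTOR 4.20%, 3.30% and 3.62%, and TSC1 2.83%, 4.05% and 1.65%. The 3′UTR held between 0 and 4 reads in each gene.

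In AKT1S1 the 17 codons before the start codon had a mean occupancy of 0.0216, about the level of its CDS at 0.0201, while the median of 6907 transcripts was 0.00195. MTOR, with 0.00707, was also above that median. RPTOR (0.00136), TSC1 (0) and RHEB (0.000120) were below it here, though above the median transcript by share of the whole 5′UTR. The annotated 5′UTRs of AKT1S1 differ from each other and the closest covers 42 of the 49 codons deposited, so its sequence is not shown here. For RPTOR, TSC1 and RHEB the annotated 5′UTRs were within 6 codons of the deposited length. Each holds upstream open reading frames, which run from an AUG to a stop codon before the main start. Those in frame with the CDS are shown by their AUG, in capitals, with 12 bases before (9 in the case at the edge of RHEB) and 15 after.
RPTOR, 753 nt before the start codon, chr17:78518665-78518694, plus strand: tgggctgatgagATGagtttcactgtagct
RPTOR, 555 nt before, chr17:78518863-78518892, plus strand: caggcgagcacgATGggccggtcgtggctc
TSC1, 138 nt before, AUG at chr9:135810475-135810477, minus strand, across an exon junction: acggtggtgaccATGaaagacaccaggttg
RHEB, 375 nt before, chr7:151216955-151216981, minus strand: gggagggtcATGacgcagcgagtttca
RHEB, 99 nt before, chr7:151216679-151216708, minus strand: cccctgctctgtATGccgctctctcccggc

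The frame of TSC1, 22 codons with its stop, held 33 of the 63 reads of the 5′UTR, with 11, 17 and 5 in the sets, on 29.7% of its codons. In RPTOR the farther frame, 15 codons, held 46 of 112 reads, with 25, 12 and 9 in the sets, on 5.66% of the codons, and 30 of these reads lay on a single codon. The nearer frame of RPTOR, 20 codons, held 14. In RHEB the frame 99 nt before the start held 25 of 51 reads, of which 18 lay on its second codon, and the farther frame held 6. Among matched transcripts 16.5% have such an in-frame frame, and in those with reads the median share of 5′UTR occupancy inside was 24.7%, on 16.8% of the codons.

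Counting AUGs of every reading frame, RPTOR has 6, TSC1 3 and RHEB 3 upstream, and AKT1S1 has 2 on its closest annotated 5′UTR. Codons that touch a stretch from any of these to its stop held 101 of 112 reads in RPTOR on 18.2% of the codons, and all 63 in TSC1 on 59.7%. In RHEB they held 32 of 51 on 41.4%, and in AKT1S1 95 of 103 on 73.8%. In AKT1S1 91 reads lay along an out-of-frame stretch that starts 82 nt before the start codon and runs past it. Over 3331 transcripts the median was 73.9% of the occupancy on 36.0% of the codons. That median is of occupancy over matched codons, whereas the values of the genes are shares of all reads of the 5′UTR. The shares of TSC1, RPTOR and AKT1S1 were above it and that of RHEB below. Of these, RPTOR alone had its reads on a smaller share of codons than the median, so the high shares of TSC1 and AKT1S1 go with wider stretches. Reads in RPTOR lay far from the main start, where the 165 codons nearest to it held 5 of the 112. The reads were counted in the frame of the CDS only, so translation of other frames is not measured by them.

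**Figure D5:**
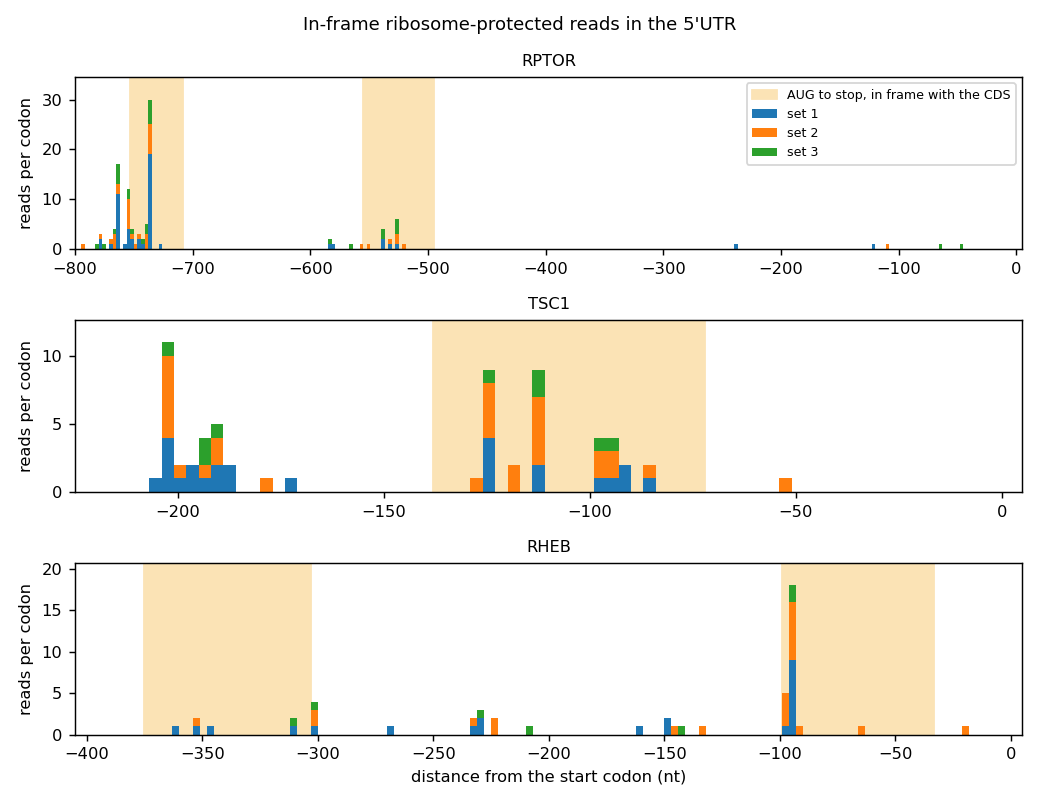
Reads per codon, in frame with the CDS, against the distance from the start codon (nt) in the 5′UTR of RPTOR, TSC1 and RHEB; colours are the 3 sets of reads, stacked, and shaded bands run from an in-frame AUG to its stop. The tallest bars are 30 reads in RPTOR, 11 in TSC1, outside the band, and 18 in RHEB, at the start of the band.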

How the data were processed

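RPFs and total RNA of the same lysates were sequenced from 3 replicates of HEK293 cells. According to the methods, the authors removed adapters and PCR duplicates, aligned RPFs of 28 to 30 nt to the hg19 transcriptome with an offset of 13 nt and counted total RNA to give TPM. The submitters' processing notes name cutadapt 1.16, Bowtie 1.1.2, TopHat2 2.1.1 and HTSeq 0.9.1. The deposited efficiency is a linear ratio per gene and replicate whose formula the sources do not state. The deposited occupancy is a list of values per codon, RPF counts normalized by the authors and divided by TPM.

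Efficiency was tested on log2(ratio + 0.01) with limma 3.58.1 in R 4.3.3, with no filter, over all 8121 genes against the median of the table, or against a reference gene within replicates, with Benjamini-Hochberg adjustment. Tested on simulated data of the same size, the comparison with the median called 82.5% of 200 genes shifted by a log2 value of 1 and 13 others. In the simulation all other genes lay at the median, unlike most real genes, so these rates do not carry over to the real data. In the pair fits the noise of the reference gene enters every difference. The prior degrees of freedom were then infinite for RICTOR and TSC2, so the p-values without pairing are given beside them. TSC2 minus TSC1 had been planned and could not be run, as TSC1 has no row.

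What 1 read is worth in each library was solved, as 3 steps per transcript, for 98.8% of transcripts. Reads themselves were recovered for the 8 genes alone. In 31 transcripts with a broken list 1 value each was set to missing, none in the genes described. Depth per library is not in the deposited tables. Sequences are from GRCh37 and GENCODE 44, matched by symbol and CDS length. Figures were drawn with matplotlib 3.10.9. The rule for named genes takes all 10 genes, the highest and the lowest of each list and the top codon of each gene. The top codon of 1 gene is not reported here. The genes, lists and tests were chosen with earlier results of these data known.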

Additional observations from a re-analysis of the deposited data

How the results depend on the processing

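All 9 genes stayed called on the same side of the median gene when 0.1 or 0.001 was added in place of 0.01, without any single replicate, and with a replicate block, in which each replicate was centred on its own median (9 of 9). A filter at a mean efficiency of 0.1 removes MLST8 and AKT1S1, and keeping genes of both tables removes MLST8 and DDIT4. All 7 that remained in each case were called. Of the pairs, RPTOR minus RICTOR ranged from 0.29 to 0.38 on the log2 scale without a replicate, and without replicate 1 it lost its call (0.29; limma, adjusted p = 0.132, against 0.0148 with all). MLST8 minus MTOR ranged from -3.19 to -2.88 and RHEB minus TSC2 from 3.67 to 3.98. With no replicate block the values were 0.32, -3.06 and 3.81 and each kept its call. TSC2 minus TSC1 was not run. The filter removes MLST8, so its pair has no value there. Genes above the median transcript in CDS occupancy numbered 3 of 8 under the trims of codons and 2 of 7 for a CDS over 600 nt. Using 17 codons before the start, or a 5′UTR over 100 nt, gave 3 of 7 genes above the median in place of 4 of 8. With the 17 codons the genes above it were not the same: TSC1, above it by share, had an occupancy of 0 there. The combined occupancy has no replicate error, and 535 reads limit DEPTOR most.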
